A study of Mus musculus with 12 samples.

Results

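Tubulins and the enzymes that remove and restore the tyrosine at the end of α-tubulin were examined in adult mouse cardiomyocytes with and without desmin. The genes were 3 α-tubulins (Tuba1a, Tuba4a and Tuba8), 5 β-tubulins (Tubb2a, Tubb2b, Tubb4b, Tubb5 and Tubb6), the ligase Ttl and the carboxypeptidase Vash1. They were chosen by gene symbol, and all 10 were found among the 21493 genes of each of the 12 libraries and passed the filter on low counts.

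Microtubules are polymers of α- and β-tubulin, each encoded by several genes whose proteins, the isotypes, differ mainly in their tails. Most α-tubulins are made with a tyrosine at the end of the tail, which VASH1 or VASH2, each with its partner SVBP, or the peptidase MATCAP1 can remove from the polymer and which tubulin tyrosine ligase (TTL) puts back on the free subunit. In cardiomyocytes, detyrosinated microtubules attach to desmin at the Z-disc and resist shortening as the cell contracts, which makes tubulin and desmin physical neighbours. Transcript levels do not measure detyrosination itself, which takes place on the protein.

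The ends of the coding sequences are shown because the enzyme pair acts on this one residue and the α-tubulin genes measured here do not all encode it. For 3 of these genes the last 30 bases of the coding sequence on the coding strand, stop codon included, were read from the GENCODE M21 transcripts (GRCm38), with the last sense codon in capitals.
Tuba4a: tatgaggacgaggatgagggagaaGAGtag
Tuba8: gaagaagagaatgagggggaggaaTTTtaa
Tuba1c: gaaggagacgatgagggtgaggaaTATtaa
Tuba1a, like Tuba1b and Tuba1c, which were not members but belong to the same family, ended in a tyrosine codon. Tuba4a ended in a glutamate codon and Tuba8 in a phenylalanine codon, so neither transcript encodes the terminal tyrosine. Of the 100-base stretches of Tuba1a, 50% occur exactly in an annotated transcript of another locus, against 61.7% for Tuba1b and 46% for Tuba1c. This share was 36.9% for Tubb2a, 26% for Tubb2b, 21% for Tubb4b and 0% for Tuba4a, Tuba8, Tubb5, Tubb6, Ttl and Vash1. Reads with several alignments were not counted by the authors. Levels of the genes with shared stretches are thus too low by an unknown amount and are uncertain between near copies. Only annotated transcripts were searched, and only for exact matches, so a share of 0% does not exclude lost reads.

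Poly-A RNA was sequenced from cardiomyocytes isolated enzymatically from the hearts of 3-month-old mice that carried desmin (Des+/+) or lacked it (Des-/-), and had undergone a swimming exercise (swim) or not (non-swim), with 3 libraries in each of 4 groups. The study's methods place the lines on a 129SV background, describe them as carrying a GFP transgene under the cardiac α-myosin heavy chain promoter in both genotypes, and state that cells of several mice were pooled for each library, so a replicate is a pool and not an animal. Reads assigned to genes ranged from 4320819 to 12072443, and the Des-/- swim group was the shallowest, with at most 6521963. The targeted gene Des, which encodes the muscle intermediate filament protein desmin, had a level of 2367 ± 1137 CPM (a gene's counts scaled to a common library size, SD, n = 3) in Des+/+ non-swim and 59.5 ± 11.3 CPM in Des-/- non-swim libraries.

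The libraries differed in their cell markers, and this bears on every result below. The summed level of 8 cardiomyocyte markers was 44682 to 73661 CPM in Des+/+ non-swim, 23058 to 42633 in Des+/+ swim, 4360 to 20230 in Des-/- non-swim and 12019 to 21199 in Des-/- swim libraries. The sum of 8 fibroblast markers was 3201 to 3659, 2204 to 3188, 7815 to 35811 and 3771 to 11683 CPM in the same order, and that of 8 macrophage markers 205 to 307, 233 to 286, 375 to 3924 and 204 to 1230 CPM. The highest fibroblast and macrophage sums of both Des-/- groups were in replicate 3, and no gene of these 3 lists was at 0 in any library. Without swimming, 8 of 8 cardiomyocyte markers were lower in Des-/- libraries (median log2 change -2.21), and 8 of 8 fibroblast and 6 of 8 macrophage markers were higher (median 1.36 and 2.69). When Des-/- non-swim replicate 3 was left out, 3 fibroblast markers (median 1.35) and 0 macrophage markers (median 0.95) were called by edgeR, and without replicate 3 of both Des-/- groups 8 and 6 were. Of 6 erythrocyte markers 5 were higher (median 2.99), as were 3 of 6 proliferation markers (median 2.57). Of 9 early-response and heat-shock genes that cell isolation is known to raise, 8 were higher without swimming (median 1.73) and 6 after it (median 1.51). The share of unique reads that fell in no gene was 33.97% to 39.34% in Des+/+ non-swim, 45.87% to 50.39% in Des+/+ swim and 57.18% to 64.52% in Des-/- swim libraries, and in the Des-/- non-swim group it was 34.16% in replicate 3 against 49% and 52.32% in the others. In bulk RNA, fewer cells of a type and less RNA per cell cannot be told apart. The part of the cell mix, the isolation response and the reads outside genes in the tubulin results was not tested.

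Levels of different genes were compared as CPM per kilobase of annotated exon. This length joins all annotated exons of a gene: 3701 bases for Tuba4a, 3327 for Tubb5, 1803 for Tuba1a and 5945 for Ttl. A gene whose transcripts use only part of this length stands too low in the order, which was not tested. In Des+/+ non-swim libraries Tubb4b, a widely expressed β-tubulin, and Tuba4a, an α-tubulin typical of muscle and other mature tissues, stood at the top, with 124 ± 26.6 and 124 ± 16.3 CPM per kb (SD, n = 3). They were followed by Tuba1a with 99.4 ± 34.3, Tubb5 with 81.2 ± 22.2, Tuba8 with 59.6 ± 2.98 and Tubb2a with 52.2 ± 16.2 CPM per kb. Each gene of this upper group overlapped with its neighbour in the order over the 3 libraries, and Tuba1a, Tubb2a, Tubb2b and Tubb4b stand too low by their uncounted reads. The lower group held Vash1 with 16.7 ± 3.47, Tubb6 with 11.1 ± 2.37, Ttl with 9.04 ± 0.373 and Tubb2b with 4.09 ± 1.69 CPM per kb, and of its neighbours Tubb6 and Ttl overlapped. In Des-/- non-swim libraries the order was different at the top, where Tuba1a had 159 ± 14.96 and Tubb5 146 ± 29.8 CPM per kb, with overlapping ranges. Tubb4b followed with 95.4 ± 8.18 and Tubb2a with 64.4 ± 12.96 CPM per kb. Tuba4a had moved to sixth place with 32.4 ± 17.1 CPM per kb, beside Tubb6 with 36.9 ± 24.9, and Ttl was last with 8.20 ± 0.540.

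**Figure D1:**
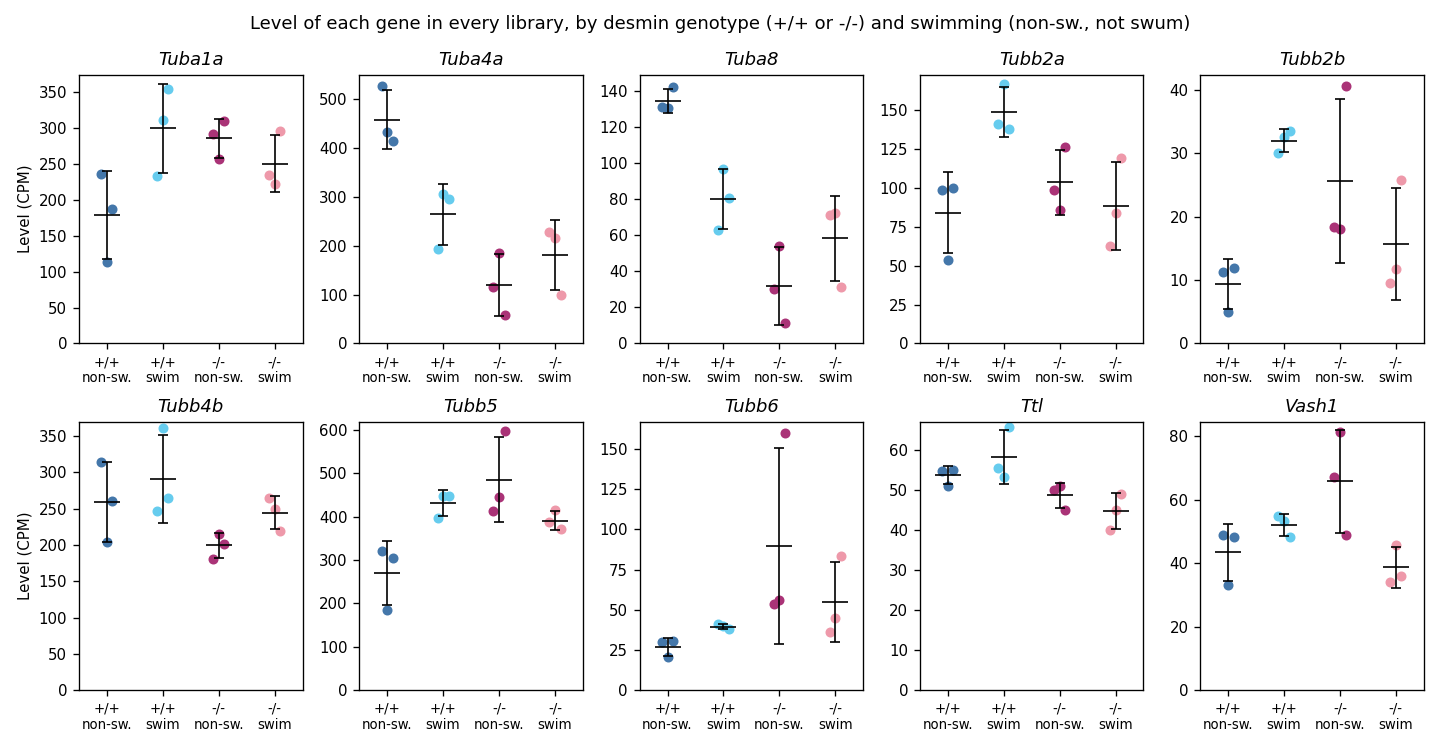
Level of each of the 10 genes in CPM (y axis, from 0) in the 3 libraries of each group (points, x axis), with the mean (line) and SD (bars); non-sw. stands for non-swim. Tuba4a and Tuba8 are highest in the 3 Des+/+ non-swim libraries, Tubb6 is highest in a single Des-/- non-swim library at 160 CPM, and Ttl stays between 40.1 and 65.9 CPM in all 12.

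The first comparison asked what loss of desmin did to these genes without swimming. The 2 α-tubulins that encode no terminal tyrosine fell the most, 3 β-tubulins rose, and Vash1 rose while no change of Ttl was detected. In all, 4 of the 10 genes were called higher (Tubb2b, Tubb5, Tubb6 and Vash1), where 14.0% of all 13158 genes tested were, and 2 were called lower (Tuba4a and Tuba8), where 18.0% were. The libraries of the groups did not overlap for 7 of the 10, against 47.9% of all genes. The median log2 change was 0.45 over the 10 genes and 0.04 over all genes. The calls are those of edgeR's quasi-likelihood test after Benjamini-Hochberg adjustment over all genes tested, with a threshold of 0.05.

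Tuba4a (ENSMUSG00000026202, GRCm38 chromosome 1, 75214228 to 75219865, minus strand) had 526, 432 and 413 CPM in the Des+/+ non-swim libraries and 116, 185 and 58.5 CPM in the Des-/- non-swim libraries. The lowest Des+/+ value was more than double the highest Des-/- value, and replicate 3 of the Des-/- group was the lowest library. The log2 change was -1.93 (SE 0.40, edgeR adjusted p = 0.0048), a 3.82-fold lower level. Without that replicate the log2 change was -1.60 (edgeR adjusted p = 0.0101).

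Tuba8 (ENSMUSG00000030137, GRCm38 chromosome 6, 121210696 to 121226854, plus strand), a divergent α-tubulin found in heart, skeletal muscle and testis, had 131, 131 and 143 CPM in the Des+/+ non-swim libraries. The Des-/- non-swim libraries had 30.0, 54.4 and 11.4 CPM. All 3 lay far below the Des+/+ libraries, which differed little among themselves, whereas the Des-/- libraries spread widely. Tuba8 was 4.24-fold lower, with a log2 change of -2.09 (SE 0.46, edgeR adjusted p = 0.00657), and -1.68 (edgeR adjusted p = 0.00785) without Des-/- replicate 3. The size of both falls was near the median of the cardiomyocyte markers given above.

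Tuba1a (ENSMUSG00000072235, GRCm38 chromosome 15, 98949837 to 98953703, minus strand), the α-tubulin known for its high level in developing neurons, had 236, 114 and 188 CPM in the Des+/+ non-swim libraries. The Des-/- non-swim libraries had 292, 257 and 310 CPM. The groups did not overlap, but the log2 change of 0.67 (SE 0.25, 95% interval 0.13 to 1.22) was just above the threshold (edgeR adjusted p = 0.0576). It passed in edgeR without Des+/+ non-swim replicate 1 (0.92, edgeR adjusted p = 0.0252) and with DESeq2 (0.69, adjusted p = 0.0269). Because 50% of its 100-base stretches are shared with other loci, part of its reads is missing from these counts.

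**Figure D2:**
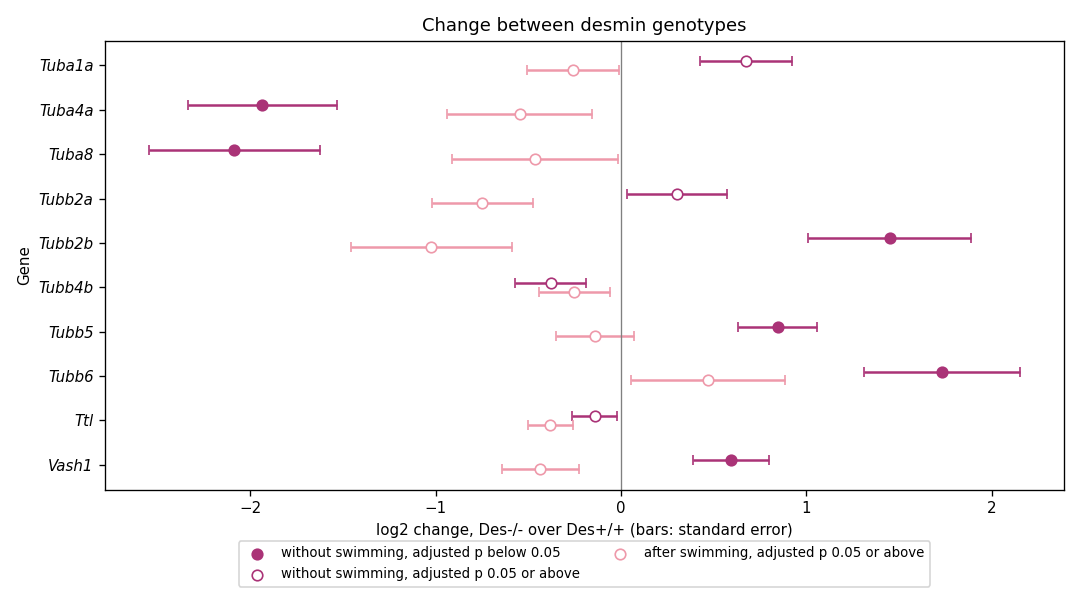
log2 change of each gene between Des-/- and Des+/+ libraries (x axis) without swimming and after it, with the standard error; filled points passed an adjusted p of 0.05 in edgeR. Without swimming 6 of the 10 points are filled, from -2.09 for Tuba8 to 1.73 for Tubb6, and after swimming none is.

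Of the β-tubulins, Tubb6, an isotype that weakens microtubule arrays when abundant and is raised in regenerating muscle fibres, changed most. It had 30.1, 20.3 and 30.6 CPM in the Des+/+ non-swim and 53.5, 55.9 and 160 CPM in the Des-/- non-swim libraries. The lowest Des-/- library lay well above the highest Des+/+ library, and replicate 3 stood far above both of its group. The log2 change was 1.73 (SE 0.42, edgeR adjusted p = 0.0102). Without replicate 3, which had the highest fibroblast, macrophage and proliferation marker sums, it was 1.02 (edgeR adjusted p = 0.0272).

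Tubb5 (ENSMUSG00000001525, GRCm38 chromosome 17, 35833921 to 35838306, minus strand), the β-tubulin of most dividing and non-dividing cells, had 320, 185 and 305 CPM in Des+/+ non-swim libraries. The Des-/- non-swim libraries had 413, 445 and 598 CPM, all above the Des+/+ range. Its log2 change was 0.85 (SE 0.21, edgeR adjusted p = 0.012). Without Des-/- non-swim replicate 3, its highest library, the log2 change was 0.67 (edgeR adjusted p = 0.0447). When only the 6 libraries compared were fitted, the call was lost (0.86, edgeR adjusted p = 0.057).

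Tubb2b (ENSMUSG00000045136, GRCm38 chromosome 13, 34126748 to 34130466, minus strand), known mainly from the nervous system, was low throughout. It had 11.3, 4.91 and 11.9 CPM in Des+/+ non-swim and 18.4, 18.0 and 40.6 CPM in Des-/- non-swim libraries. The groups did not overlap, and the log2 change was 1.45 (SE 0.44, edgeR adjusted p = 0.0266). The call rested on single libraries: without Des-/- non-swim replicate 3 the log2 change was 0.95 (edgeR adjusted p = 0.113), and without Des+/+ non-swim replicate 2 it was 1.14 (edgeR adjusted p = 0.0954).

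No change was detected for the other two β-tubulins. Tubb2a, the near copy of Tubb2b, had 53.9 to 99.7 CPM in Des+/+ non-swim and 85.8 to 127 CPM in Des-/- non-swim libraries (log2 change 0.30, 95% interval -0.29 to 0.89). Tubb4b had 203 to 314 and 181 to 215 CPM (log2 change -0.38, 95% interval -0.79 to 0.04). Both pairs of ranges overlapped, and the interval of Tubb2a leaves room for a change of the size seen for Tubb5.

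Ttl (ENSMUSG00000027394, GRCm38 chromosome 2, 129065942 to 129096283, plus strand), the only enzyme known to put the tyrosine back, had 54.9, 51.2 and 55.1 CPM in Des+/+ non-swim libraries. The Des-/- non-swim libraries had 50.2, 51.0 and 45.0 CPM. All 3 were below the Des+/+ libraries, by a narrow margin, and the log2 change of -0.14 (SE 0.12, 95% interval -0.41 to 0.12) was not called (edgeR adjusted p = 0.398). With library size alone, where the median of all genes moved up by 0.26 on the log2 scale, the estimate for Ttl was 0.12.

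Vash1 (ENSMUSG00000021256, GRCm38 chromosome 12, 86678700 to 86692091, plus strand), which encodes a tubulin carboxypeptidase first known as an inhibitor of blood vessel growth made by endothelial cells, had 49.0, 33.1 and 48.4 CPM in Des+/+ non-swim libraries. The Des-/- non-swim libraries had 67.1, 81.5 and 48.9 CPM. Replicate 3 of the Des-/- group lay within the Des+/+ range, so the groups overlapped. The log2 change was 0.60 (SE 0.21, edgeR adjusted p = 0.0446), close to the threshold, and the call was lost in 9 of the 12 fits that left out a single library, where adjusted p reached 0.16. Of 8 endothelial markers, 0 were called between these groups by edgeR (median log2 change -0.01). Their summed level ranged from 6391 to 7924 CPM in Des+/+ and 5491 to 9088 CPM in Des-/- non-swim libraries. Without replicate 3 of both Des-/- groups 2 of the 8 were called higher (median 0.20), where 13.6% of all genes were. In that fit the log2 change of Vash1 was 0.84 (edgeR adjusted p = 0.0103). The part of endothelial cells in the Vash1 level was not tested.

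The balance of the enzyme pair was described as the log2 ratio of the levels of Ttl and Vash1 in each library. It is not corrected for gene length, so only its differences between groups can be read. The ratio was 0.16, 0.63 and 0.19 in Des+/+ non-swim and -0.42, -0.68 and -0.12 in Des-/- non-swim libraries. All 3 Des-/- libraries lay below all Des+/+ libraries, with means of -0.40 ± 0.28 and 0.33 ± 0.26 (SD, n = 3). After swimming the ratio was 0.16 ± 0.25 in Des+/+ and 0.22 ± 0.24 in Des-/- libraries, and the ranges overlapped. No test was made of this ratio.

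The makeup of the α-tubulin transcripts was followed as the share of each gene in all α-tubulin reads per kb of exon, 8 genes in all. In Des+/+ non-swim libraries Tuba4a held 36.8% ± 4.04 (SD, n = 3), Tuba1a 28.8% ± 5.74 and Tuba8 18.0% ± 3.01. In Des-/- non-swim libraries Tuba1a held 53.8% ± 5.16, Tuba4a 10.95% ± 5.76 and Tuba8 4.77% ± 3.22. For each of the 3 genes the ranges of these groups did not overlap. The genes that encode a terminal tyrosine together held 45.2% ± 6.07 of α-tubulin reads in Des+/+ non-swim and 84.3% ± 8.97 in Des-/- non-swim libraries. After swimming they held 68.4% ± 2.03 in Des+/+ and 73.0% ± 10.2 in Des-/- libraries, with overlapping ranges. The summed level of all α-tubulin genes was 338 ± 57.5 CPM per kb in Des+/+ non-swim and 295 ± 0.598 in Des-/- non-swim libraries, where the Des-/- libraries lay inside the range of the Des+/+ libraries.

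These shares depend on how length is treated. Without length correction the tyrosine-encoding genes held 32.2% in Des+/+ and 76.0% in Des-/- non-swim libraries. The number of 100-base stretches found in no annotated transcript of another locus was also taken as the length, as an allowance for the uncounted reads. They then held 65.7% and 92.3%. With that length the order within Des+/+ non-swim libraries turned round, with Tuba1a at 38.9% and Tuba4a at 22.2%. The direction between the genotypes was the same under all 3 lengths, but this is no separate check. Tuba1a, Tuba1b and Tuba1c had higher and Tuba4a and Tuba8 lower mean levels in Des-/- non-swim libraries. That sets the direction for these genes whatever the length.

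**Figure D3:**
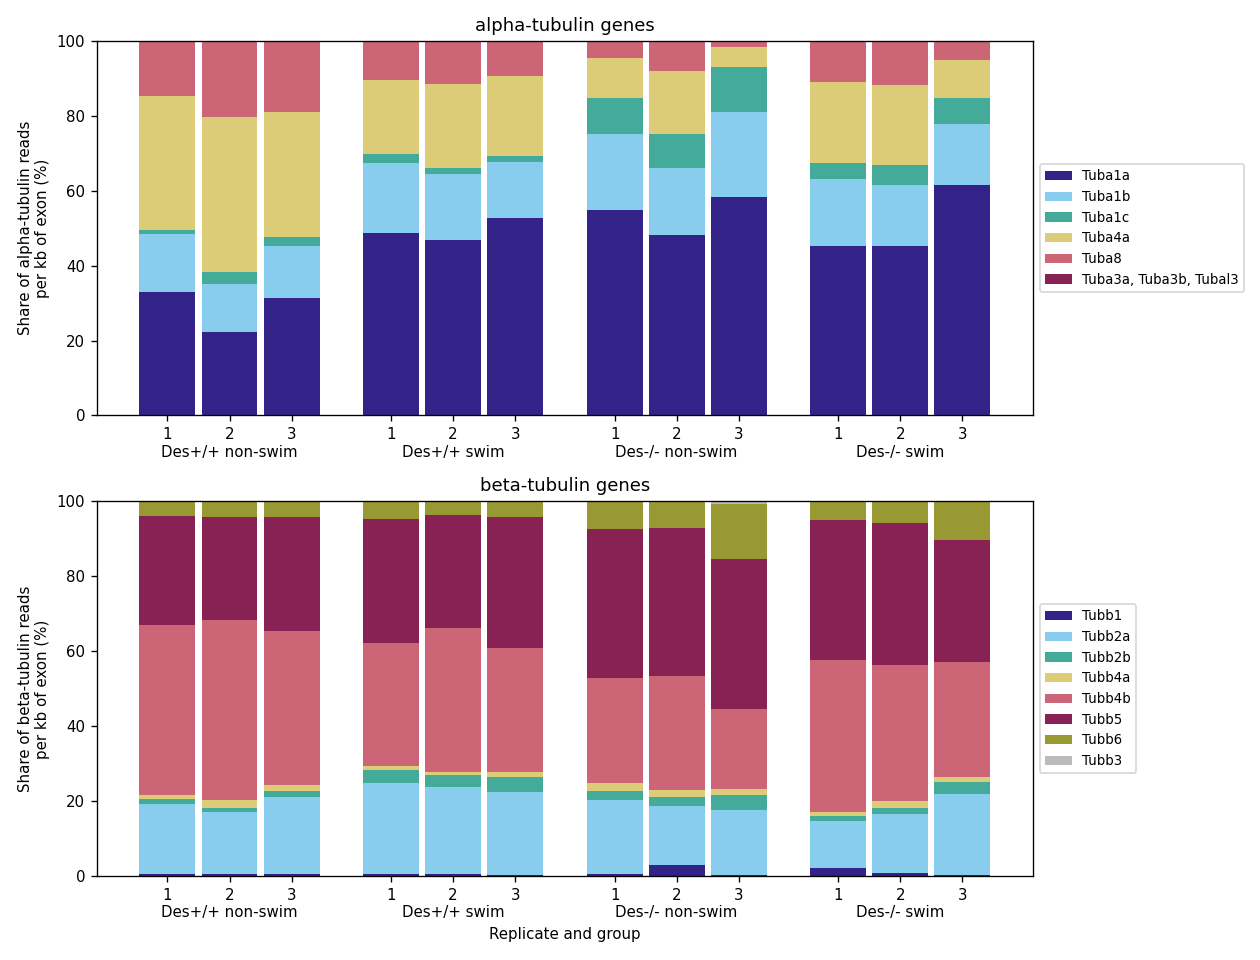
Share of each gene in the α-tubulin (top) and β-tubulin reads per kb of exon (bottom), in percent (y axis), for each library (bars, x axis). The Tuba4a and Tuba8 segments are widest in the Des+/+ non-swim libraries and the Tuba1a segment is 58.3% in Des-/- non-swim replicate 3; the Tubb6 segment of the same library is 14.6%.

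Among β-tubulin reads per kb of exon, Tubb4b held 44.9% ± 3.49 (SD, n = 3) in Des+/+ non-swim and 26.6% ± 4.66 in Des-/- non-swim libraries. Tubb5 held 28.9% ± 1.44 and 39.8% ± 0.18, and stood above Tubb4b in the Des-/- libraries. Tubb6 held 4.00% ± 0.237 and 9.48% ± 4.43. The ranges of these 3 shares did not overlap between the 2 groups, whereas those of Tubb2a (18.5% ± 1.98 and 17.7% ± 1.96) did. Without length correction Tubb5 was level with Tubb4b already in the Des+/+ non-swim libraries (40.6% and 39.5%). The summed β-tubulin level was 279 ± 67.4 CPM per kb in Des+/+ and 366 ± 73.7 in Des-/- non-swim libraries, with overlapping ranges.

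The second comparison was between the genotypes after swimming. edgeR called 0 of the 10 genes, where 5.01% of all genes were called higher and 5.57% lower. At an unadjusted p under 0.05 there were 3 (Tubb2a, Tubb2b and Ttl, all lower), against 30.5% of all genes, and DESeq2 called 1, Ttl, against 17.7%. The groups did not overlap for 4 genes, Tubb2a, Tubb2b, Ttl and Vash1, against 35.9% of all genes, and in each of them the Des-/- libraries were the lower ones. The median log2 change over the 10 genes was -0.41, against 0.02 over all genes. The 6 isolation-response genes given above were higher in the same comparison, and 2 of the list were called without Des-/- swim replicate 3.

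Tubb2b had 30.0, 32.5 and 33.4 CPM in Des+/+ swim and 9.53, 11.8 and 25.7 CPM in Des-/- swim libraries. Every Des-/- library was thus below every Des+/+ library, opposite to the comparison without swimming, and the log2 change was -1.02 (SE 0.43, edgeR adjusted p = 0.138). Tubb2a had 141, 167 and 138 CPM against 62.7, 84.0 and 119 CPM, a log2 change of -0.75 (SE 0.27, edgeR adjusted p = 0.093). Without replicate 3 of both Des-/- groups both genes passed the test, with log2 changes of -1.59 for Tubb2b (edgeR adjusted p = 0.0175) and -1.02 for Tubb2a (edgeR adjusted p = 0.0335). Both share many of their reads with each other or with other loci.

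Ttl had 55.6, 53.3 and 65.9 CPM in Des+/+ swim and 40.1, 45.1 and 49.1 CPM in Des-/- swim libraries. The log2 change was -0.38 (SE 0.12, 95% interval -0.65 to -0.11, edgeR adjusted p = 0.067). Vash1 had 54.9, 53.3 and 48.2 CPM against 34.3, 45.9 and 35.9 CPM, and its log2 change of -0.43 (SE 0.21, edgeR adjusted p = 0.181) had the sign opposite to that without swimming. The 2 enzymes were thus both at lower estimates after swimming, and neither passed the test.

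The muscle α-tubulins were closer between the genotypes after swimming. Tuba4a had 193, 306 and 295 CPM in Des+/+ swim and 229, 216 and 98.8 CPM in Des-/- swim libraries (log2 change -0.55, 95% interval -1.40 to 0.31). Tuba8 had 63.2, 96.9 and 80.7 CPM against 71.2, 72.6 and 31.3 CPM (log2 change -0.46, 95% interval -1.44 to 0.52). In both genes the ranges overlapped, and replicate 3 of the Des-/- swim group was the lowest of all swim libraries. Tubb6 had 38.0 to 40.9 CPM in Des+/+ swim and 36.4, 44.8 and 83.1 CPM in Des-/- swim libraries, where replicate 3 stood apart again (log2 change 0.47, 95% interval -0.44 to 1.38). The estimates for Tuba1a (log2 change -0.26, 95% interval -0.80 to 0.28), Tubb4b (-0.25, -0.67 to 0.16) and Tubb5 (-0.14, -0.60 to 0.32) were within about 1 unit of 0 on the log2 scale over their whole intervals.

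Swimming itself was the next comparison, first with and then without desmin. In Des+/+ cells edgeR called 0 of the 10 genes, where 0.0912% of all genes were called. At an unadjusted p under 0.05 there were 4 (Tuba1a, Tubb2a, Tubb2b and Tubb5, all higher after swimming), against 20.5% of all genes, and DESeq2 called 4, against 6.17%. Tubb2b had the largest estimate, from 9.38 ± 3.88 to 32.0 ± 1.78 CPM (SD, n = 3), a log2 change of 1.76 (SE 0.44, edgeR adjusted p = 0.0911), and its groups did not overlap. Without Des-/- non-swim replicate 3, which is in neither group but enters the estimate of spread, it passed the test. The estimates for Tuba4a (-0.79, SE 0.39) and Tuba8 (-0.75, SE 0.44) were negative, and for both genes every swim library was below every non-swim library, but the adjusted p in edgeR was 0.277 and 0.356. The cardiomyocyte marker sums and the shares of reads in no gene given above also differed between these groups without overlap. All 6 erythrocyte markers were higher in every swim library than in every non-swim library, with a median log2 change of 2.47 and 0 calls by edgeR. Among the 10 genes the groups did not overlap for 6: Tuba4a, Tuba8, Tubb2a, Tubb2b, Tubb5 and Tubb6. The share of all genes without overlap is not given for swimming, so these counts are a description only.

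In Des-/- cells edgeR again called 0 of the 10 genes, where 0.0228% of all genes were called. At an unadjusted p under 0.05 there was 1, Vash1, against 16.7% of all genes, and DESeq2 called the same gene, against 2.58%. Vash1 went from 65.8 ± 16.4 to 38.7 ± 6.32 CPM (SD, n = 3), with every swim library below every non-swim library, a log2 change of -0.77 (SE 0.21, edgeR adjusted p = 0.187). Groups did not overlap for 2 of the 10 genes, Vash1 and Tubb4b. The estimates for Tuba4a (0.60, SE 0.39) and Tuba8 (0.87, SE 0.45) were positive, and their ranges overlapped. The labels give replicate numbers but state no pairing. Here each swim library correlated best with the non-swim library of its own number, so the libraries were also read as 3 pairs by number. Replicate 3 held the highest fibroblast and macrophage sums in both groups, and its part in these correlations was not tested. Within the 3 pairs Tuba4a went from 116 to 229, from 185 to 216 and from 58.5 to 98.8 CPM. Tuba8 went from 30.0 to 71.2, from 54.4 to 72.6 and from 11.4 to 31.3 CPM. Both were thus higher after swimming in all 3 pairs, as was Tubb4b, while Tuba1a, Tubb2a, Tubb2b, Tubb5, Tubb6 and Vash1 were lower in all 3. The share of all genes that moved 1 way in all 3 pairs was not computed, so these directions are a description only. With the pair in the model the log2 change was 0.63 for Tuba4a and 0.96 for Tuba8 (edgeR adjusted p = 0.362 and 0.271), and 0 of the 10 genes were called by edgeR.

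The interaction term asked if the response to swimming depended on the genotype. edgeR called 0 of the 10 genes and 0.00% of all genes. At an unadjusted p under 0.05 there were 7 (Tuba1a, Tuba4a, Tuba8, Tubb2a, Tubb2b, Tubb5 and Vash1), against 16.3% of all genes, and DESeq2 called 3 (Tubb2b, Tubb5 and Vash1), against 2.49%. The interaction was -2.47 for Tubb2b (SE 0.62), -1.03 for Vash1 (SE 0.29) and -0.99 for Tubb5 (SE 0.30) on the log2 scale, with an edgeR adjusted p of 0.199 for each. For Tuba8 it was 1.62 (SE 0.64, edgeR adjusted p = 0.251) and for Tuba4a 1.39 (SE 0.55, edgeR adjusted p = 0.256). The interaction uses the libraries of all 4 groups, and each of the other comparisons shares a group with 2 of the rest, so their values are not independent of each other. The erythrocyte markers had a median of -3.54 in the interaction, with 0 of 6 called by edgeR.

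The same test was read for other genes of microtubule biology, in lists of 115 genes with a row in the files. Of the other tubulin genes, 3 of 9 tested were higher in Des-/- non-swim cells and 0 lower, beside the 14.0% and 18.0% of all genes given above. Tuba1c rose from 17.0 ± 4.73 to 68.9 ± 10.9 CPM (SD, n = 3; log2 change 2.02, SE 0.22, edgeR adjusted p = 7.04e-04), and it was the only one called after swimming (1.33, SE 0.22, edgeR adjusted p = 0.0119). Tubb4a rose by 0.77 (SE 0.26) from a low level, and the third was Tubb3, the neuronal β-tubulin, which is named after its values were seen. Tubb3 had 0.234 to 0.825 CPM, at most 7 counts, in Des+/+ non-swim and 1.132 to 6.65 CPM in Des-/- non-swim libraries. Without Des-/- non-swim replicate 3 the count was 1 of 9, and 6.84% of all genes were called higher and 14.3% lower in that fit. Tuba1b, the main α-tubulin of dividing cells, was not called (0.32, SE 0.19).

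The partners and alternatives of VASH1 gave no call. Svbp had 18.7 ± 3.05 CPM in Des+/+ non-swim and 22.5 ± 5.15 CPM in Des-/- non-swim libraries (SD, n = 3; log2 change 0.27, SE 0.19). Vash2 was low, with 1.23 ± 0.353 CPM and 2.29 ± 2.00 CPM and at most 52 counts in a library (log2 change 0.91, SE 0.66), and the gene of MATCAP1, listed as 4931428F04Rik, had at most 69 counts (log2 change 0.49, SE 0.33). In the list of 7 tail peptidases and cofactors tested, 1 was lower and 0 higher, where 18.0% of all genes were lower and 14.0% higher. The lower gene, Agtpbp1, which encodes CCP1, an enzyme that trims glutamate from tubulin tails, fell by 1.32 on the log2 scale (SE 0.19, edgeR adjusted p = 9.69e-04). Of 7 tubulin tyrosine ligase-like genes tested, whose products mostly add glutamate or glycine chains, 1 was lower and 1 higher, again near the shares of all genes. Ttll1, the catalytic part of a polyglutamylase, went from 72.4 ± 6.04 to 18.8 ± 5.45 CPM (log2 change -1.95, SE 0.28, edgeR adjusted p = 0.00105), while Ttll12 rose by 0.60 (SE 0.18). Without Des-/- non-swim replicate 3 the ligase-like count was 1 lower and 0 higher, where 14.3% of all genes were lower and 6.84% higher in that fit. After swimming 0 of these 14 genes were called by edgeR, where 5.01% of all genes were called higher and 5.57% lower. None of the 3 tubulin acetylation enzymes was called in either comparison.

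**Figure D4:**
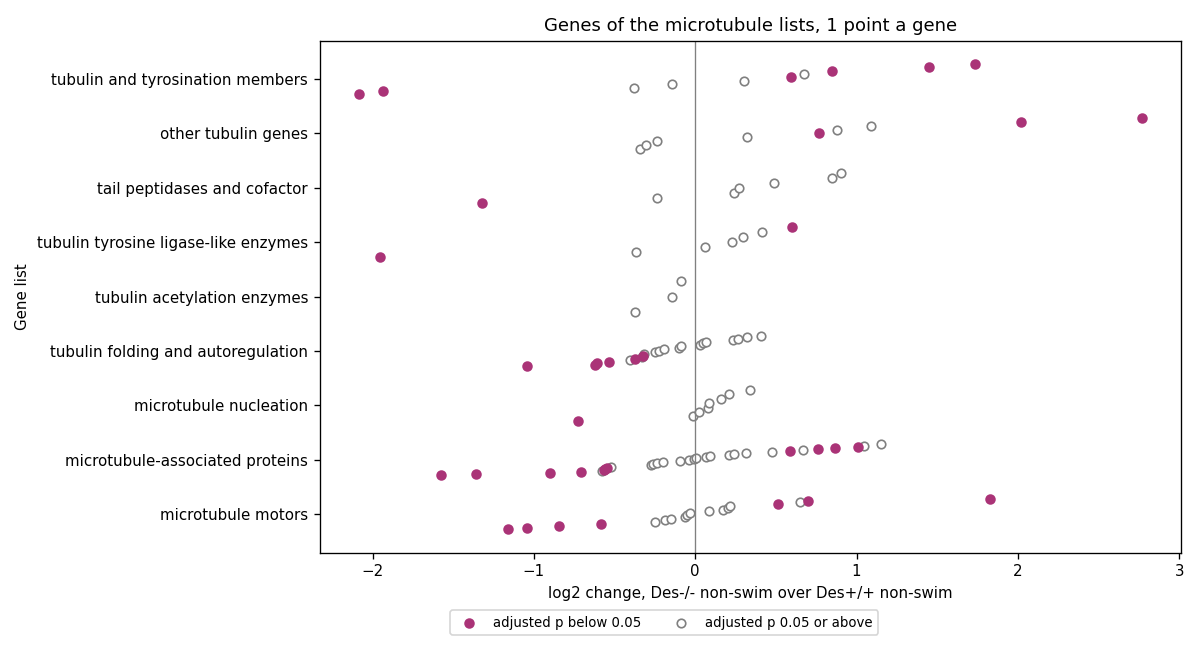
log2 change between Des-/- non-swim and Des+/+ non-swim libraries (x axis) for each tested gene of 9 lists (y axis), 1 point a gene; filled points passed an adjusted p of 0.05 in edgeR. Filled points of the folding list lie below 0 only, and those of the associated proteins and motors lie on both sides.

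Of 21 genes for tubulin folding and autoregulation, 6 were lower and 0 higher in Des-/- non-swim cells, where 18.0% of all genes were lower and 14.0% higher, with a list median of -0.23. They were Arl2 (log2 change -1.05, SE 0.25), a small GTPase that works with the tubulin cofactors, the prefoldin subunits Pfdn2 (-0.62, SE 0.18) and Pfdn1 (-0.61, SE 0.18), and Vbp1, Tcp1 and Cct8 at between -0.54 and -0.33. Ttc5, which triggers decay of tubulin messages when free tubulin is in excess, was not called (0.23, SE 0.16). After swimming Cct8 was lower (-0.48, SE 0.11) and Tbce higher (0.78, SE 0.15). Without Des-/- non-swim replicate 3 the count without swimming was 3 of 21 lower, against 14.3% of all genes in that fit. Without Des-/- swim replicate 3 the count after swimming was 1 higher and 0 lower by edgeR. Of 8 nucleation genes 1 was lower in both comparisons, where 18.0% of all genes were lower without swimming and 5.57% after it. This gene was Mzt1, a small part of the γ-tubulin ring complex (-0.73, SE 0.11 without and -0.65, SE 0.11 after swimming).

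Of 30 microtubule-associated protein genes, 4 were higher and 7 lower without swimming, shares near the 14.0% and 18.0% of all genes. Map1a rose by 1.01 (SE 0.16), Stmn1, which encodes the tubulin-binding protein stathmin, by 0.86 (SE 0.29), and the plus-end gene Clip2 by 0.76 (SE 0.25). Map7, a kinesin partner, changed by -1.58 (SE 0.40), Mapt, the tau gene, by -1.36 (SE 0.40) and Clip1 by -0.90 (SE 0.25). Mapt had 93.2 ± 20.4 CPM in Des+/+ non-swim and 36.4 ± 21.0 CPM in Des-/- non-swim libraries (SD, n = 3). After swimming 1 was higher and 3 were lower, the latter being the minus-end gene Camsap2 (-0.64, SE 0.16), Mapre2 (-0.60, SE 0.13) and the severing enzyme gene Spast (-0.52, SE 0.12). Without Des-/- non-swim replicate 3 the counts without swimming were 1 higher and 4 lower, where 6.84% and 14.3% of all genes were in that fit. Without Des-/- swim replicate 3 the counts after swimming were 1 higher and 0 lower, so each of the 3 lower calls was lost, and 2.69% of all genes were called lower by edgeR in that fit against 5.57% with all libraries.

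Of 18 motor genes, 3 were higher and 4 lower without swimming, again near the shares of all genes. Kif1a (1.83, SE 0.52), Kif3a (0.70, SE 0.17) and Kif3b (0.51, SE 0.16) were higher, and the kinesin light chain gene Klc2 (-1.16, SE 0.19), Kif1b (-1.05, SE 0.20) and Kif1c (-0.84, SE 0.22) led those that were lower. Without Des-/- non-swim replicate 3 the counts were 1 higher and 3 lower, where 6.84% and 14.3% of all genes were in that fit. Kif3a was also higher after swimming (1.03, SE 0.18) and the dynein light intermediate chain gene Dync1li1 lower (-0.63, SE 0.12). No gene of these lists was called by edgeR for swimming in either genotype or for the interaction.

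The genes whose log2 CPM over the 12 libraries was most like that of 5 members were named from the 12147 genes that averaged 20 counts or more. The likeness is Pearson's r, given as a description: the libraries fall into the 4 groups, so it reflects the differences between groups and libraries already shown. For Tuba4a they were Exoc6 (r = 0.976), Egln1 (0.973) and Pptc7 (0.965), and for Tuba8 they were Cmss1 (0.970), Ndufaf4 (0.964) and Fndc5 (0.964). For Tubb6 they were Mmp19 (0.987), Anxa1 (0.979) and 1810055G02Rik (0.979). Mmp19 had 7.37 ± 1.54 CPM in Des+/+ non-swim and 29.7 ± 19.2 CPM in Des-/- non-swim libraries (SD, n = 3), and its SD in the second group was wide, as that of Tubb6 was. The nearest genes were less close for Ttl, with Aplp2 (0.911), Pigw (0.905) and Zfp568 (0.901), and for Vash1, with Plxnd1 (0.874), Calhm2 (0.871) and Gabpb2 (0.845).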

How the data were processed

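Each of the 12 libraries came as 1 deposited table of unnormalised read counts by gene. Per the labels and the study's methods, the authors aligned 100-base single-end reads to GRCm38 with HISAT2 2.2.1 and counted them with HTSeq in reverse-strand mode, without normalisation. The labels name an unstranded kit and the methods a directional one, so reads of overlapping opposite-strand genes (Stk16 at Tuba4a, Fam166a at Tubb4b) may not be fully apart. On the same strand, Gm49450 overlaps Tuba1a and Tuba1b, and Gm20388 overlaps Tubb3, in GENCODE M21. Reads that fall in 2 such genes may be missing from their counts, which was not tested. Reads with several alignments were not counted. Groups were taken from the labels.

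The tests used edgeR 4.0.16 in R 4.3.3 (filterByExpr, 13158 genes; TMM; 1 model of 4 group means over 12 libraries, quasi-likelihood tests of 5 contrasts, Benjamini-Hochberg) and, as an alternative, DESeq2 1.42.0. P-values measure the spread between pools. Log2 CPM used a prior count of 2. Exon lengths and coding ends came from GENCODE M21. The members and lists were chosen with earlier results of these data known. In each list up to 3 called genes a direction with a mean count of at least 20 were named, and 2 list genes, Cct6a and Clasp1, were not analysed here; 1 other list gene and some coding ends are not reported here. On simulated counts for the comparison without swimming (13158 genes), the test found 42 of the 100 genes given a log2 change of 1 and 86 of the 100 given a change of 2, with 9 calls among 12958 unchanged genes. The simulation changed only 200 genes, whereas 14.0% of all genes were called higher and 18.0% lower in the data. The adjustment depends on that share, so these rates need not hold for the data. The labels state no pairing. Only for swimming in Des-/- did every library correlate best with that of its own replicate number (0.365, 0.316 and 0.602, group means removed). A count of 3, taken as the floor, was at most 0.694 CPM; floors and depth cover counting error only.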

Additional observations from a re-analysis of the deposited data

Results flagged for a closer look

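Tubb2b stood out because the genotypes differed in opposite directions in the 2 swimming conditions. All 3 Des-/- non-swim libraries were above all Des+/+ non-swim libraries, and all 3 Des-/- swim libraries were below all Des+/+ swim libraries. The difference between these effects, tested as the interaction, was -2.47 on the log2 scale (edgeR adjusted p = 0.199), so it did not pass over all genes, whereas DESeq2 called it.

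The share of alignments that were not unique, which the comparisons do not use, was higher in every swim library than in any non-swim library of either genotype. It was 30.4% ± 1.40 (SD, n = 3) in Des+/+ swim and 34.0% ± 2.80 in Des-/- swim, against 24.3% ± 1.27 in Des+/+ non-swim and 26.2% ± 2.61 in Des-/- non-swim libraries. Its part in the levels of Tuba1a, Tubb2a, Tubb2b and Tubb4b, which share sequence with other loci, was not tested.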

How the results depend on the processing

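Without swimming, the 6 calls between genotypes became 3 when only the 6 libraries compared were fitted, and 4 to 6 when 1 library was left out; under the other alternatives they stayed at 6 or 7. Calls that were 0 in edgeR became more with DESeq2 (1 after swimming, 4 for swimming in Des+/+, 1 in Des-/-, 3 for the interaction). With the study's filter, applied here to edgeR's unadjusted p and to scaled mean levels, they became 2, 4, 1 and 7. The study applied its filter to DESeq2 results, so these are not its counts. The share of all genes that passed that filter is not given here. An unadjusted p under 0.05 alone, without that filter's limits on change and count, was met by many genes. It was met by 30.5%, 20.5%, 16.7% and 16.3% of all genes in the same order. For swimming in Des+/+ there was 1 call when 6 libraries were fitted and 0 to 1 when 1 library was left out; the 1 came without Des-/- non-swim replicate 3. Leaving out 1 library gave 0 calls in the other 3 comparisons. Without replicate 3 of both Des-/- groups, chosen after seeing the data, there were 6 calls without swimming, 2 after it and 2 for swimming in Des+/+. In that fit 13.6% of all genes were called higher and 14.4% lower without swimming, and 5.71% and 6.23% after it. The share for swimming in Des+/+ is not given here. The replicate block gave 6 calls without swimming, 1 after it (Tubb2b) and 0 elsewhere, with Tuba1a gained and Vash1 lost without swimming. The labels link these libraries by number only, and outside swimming in Des-/- not every library correlated best with its own. The sign turned, with no call, for Ttl without swimming (0.12) and Tubb5 after swimming (0.0042) under library size alone. It also turned when 1 library was left out: Tubb4b ranged from -0.0203 (without Des+/+ swim replicate 2) to 0.33 for swimming in Des+/+ and from -0.032 (without Des+/+ non-swim replicate 1) to 0.32 in the interaction, and Tubb6 from -1.15 to 0.0074 (without Des-/- non-swim replicate 3) for swimming in Des-/-. Library size alone moved the median of all genes by 0.26 without and 0.15 after swimming. Shares in Des+/+ and Des-/- non-swim libraries without length correction were 20.04% and 46.5% for Tuba1a, 52.2% and 19.0% for Tuba4a, 40.6% and 52.4% for Tubb5 and 12.6% and 11.2% for Tubb2a, and 39.5% in Des+/+ for Tubb4b. With unshared windows, added after seeing the data, they were 22.2% and 5.17% for Tuba4a, 22.6% and 32.3% for Tubb5, 25.0% and 24.8% for Tubb2a, and in Des+/+ 38.9% for Tuba1a, 12.1% for Tuba8 and 3.34% for Tubb6. The cause of these moves is the length itself. The Ttl to Vash1 ratio moved by less than the spread between replicates with a prior count of 0.5.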
